A study of Rattus norvegicus with 6 samples.

Results

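The 5 genes described here are 4 matrix metalloproteinases, Mmp2, Mmp3, Mmp9 and Mmp14, and the metalloproteinase inhibitor Timp1. In that order their Ensembl rat IDs are ENSRNOG00000016695, ENSRNOG00000032626, ENSRNOG00000017539, ENSRNOG00000010947 and, for Timp1, ENSRNOG00000010208. They were taken by these IDs as genes of one proteolytic system, and all 5 were found among the 22526 genes of the deposited table. The rule itself reads no values, but the members were chosen with earlier results of these data known. Spinal cord RNA had been sequenced from 6 adult female rats of the Sprague-Dawley strain, 1 library per rat, at 2 weeks after an injury of the spinal cord. In 3 rats the injury had received a decellularized optic nerve scaffold, which is nerve tissue freed of cells (DON). In the remaining 3 rats the scaffold also carried Apt19S, an aptamer, that is, a short nucleic acid folded to bind a target (A-DON). Injury and scaffold were thus common to both groups. There was no uninjured or unimplanted group, and the sources used here do not give the kind or level of the injury.

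Matrix metalloproteinases are zinc-dependent enzymes that are made as inactive proenzymes and cut collagens, laminins, proteoglycans and other extracellular proteins. Mmp14 sits in the cell membrane and activates the proenzyme of Mmp2, a gelatinase often made by fibroblasts and vascular cells. Mmp9, the other gelatinase, is abundant in neutrophils and is also made by activated macrophages, and after spinal cord injury it is known for opening the barrier between blood and cord. Mmp3, or stromelysin, can activate the proenzyme of Mmp9. Timp1 blocks most secreted metalloproteinases, binds the proenzyme of Mmp9, and is a poor inhibitor of Mmp14.

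The upstream sequences of 2 of the 5 genes, Mmp3 and Timp1, were in the RefSeq promoter table used here (build GRCr8). They are shown because binding sites of the AP-1 and Ets transcription factors in these regions are textbook features of both genes; no result here bears on those sites. Each run is a 162-base stretch, read 5′ to 3′ on the strand of the gene. The capitals mark every match to the AP-1 element TGANTCA, to the related TGAGTAA, and to the Ets element AGGAAG, searched on both strands within 250 bases before the start of the gene.
Mmp3: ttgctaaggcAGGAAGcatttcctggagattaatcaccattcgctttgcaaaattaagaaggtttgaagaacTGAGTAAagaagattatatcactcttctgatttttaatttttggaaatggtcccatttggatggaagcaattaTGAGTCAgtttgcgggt
Timp1: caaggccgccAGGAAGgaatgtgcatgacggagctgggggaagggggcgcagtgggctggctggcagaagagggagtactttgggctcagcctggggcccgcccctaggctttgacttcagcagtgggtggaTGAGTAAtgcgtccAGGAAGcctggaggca
The Mmp3 stretch lies at chr8:12925065-12925226 on the plus strand, and the Timp1 stretch at chrX:3771201-3771362 on the minus strand. Mmp3 had TGAGTCA from 71 to 65 bases before its start and TGAGTAA from 144 to 138 bases before it. Timp1 had TGAGTAA from 108 to 102 bases before its start, and RefSeq also lists Timp1 transcripts that start further upstream. TGANTCA occurred in 6.34% of the 33469 rat windows of the same length, TGAGTAA in 2.38% and AGGAAG in 29.5%, so that AGGAAG in particular is a common match. The matches describe the letters only, and the 3 patterns were chosen after the windows had been read.

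The values are whole counts per gene divided by a size factor of the library, here called normalized counts. The whole counts behind them could be recovered and are called reads here, although how reads were counted is not given. The Poisson intervals below treat them as independent reads. Libraries held 24961512 to 31189687 reads. Among all genes, 6930 of 19515 tested genes passed the test (35.5%; limma, a linear model with a spread estimate shared across genes, Benjamini-Hochberg adjusted p under 0.05), and 16.6% passed it as lower in A-DON. Without A-DON replicate 2 the count was 9286, and without A-DON replicates 1 or 3 it was 35 and 12. No table at hand pairs the other IDs with gene names. Markers of neutrophils, macrophages, fibroblasts, neurons, glia, vessels and muscle, the tissue label and the further genes of this pathway were therefore not checked, and the part of cell content in the values below was not tested. In bulk tissue, fewer cells that make a transcript and less transcript per cell cannot be told apart.

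All 5 genes had lower mean levels in A-DON than in DON cords, by 2.30-fold (Mmp14) to 6.91-fold (Mmp9) in mean normalized counts. Timp1 was the only one of the 5 to pass the test, narrowly, as lower in A-DON, against 16.6% of all tested genes that did so. A share of 1 in 5 is near that background. The 2 A-DON rats numbered 1 and 3 had the low values, below every DON rat in all 5 genes, which was so for 35.7% of tested genes. A-DON replicate 2 was the highest A-DON library for all 5 genes (38.6% of tested genes) and lay within the DON range for Mmp2, Mmp3 and Mmp9 (12.1% of tested genes). By an unadjusted limma p under 0.05, 4 of the 5 were lower (all but Mmp3), against 25.1% of tested genes, and all 5 were lower by at least 2-fold on the fitted scale, against 19.3%. The 5 genes were measured in the same 6 libraries, so these counts are not 5 separate observations. The members were also chosen with earlier results of these data known, so setting them beside all tested genes is a description and no test.

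**Figure D1:**
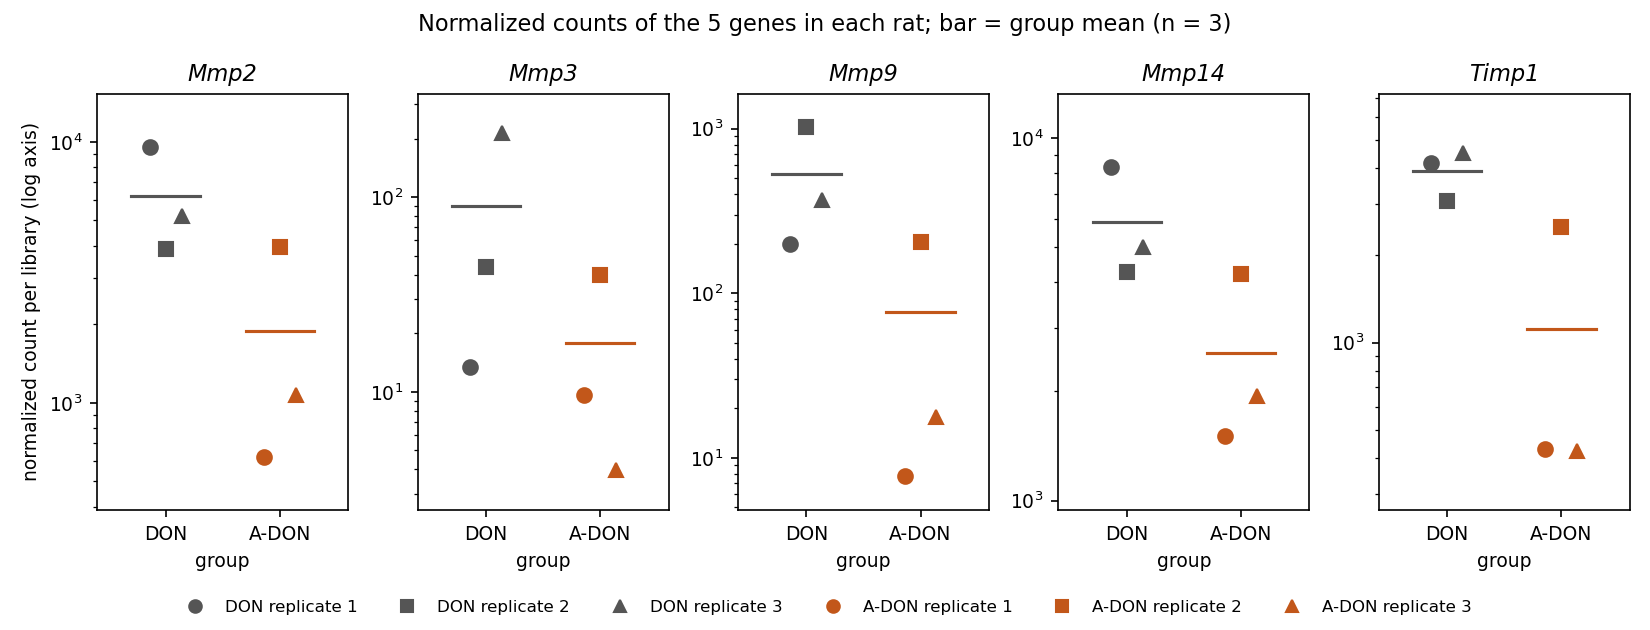
Normalized counts of Mmp2, Mmp3, Mmp9, Mmp14 and Timp1 in each rat, on a log axis that differs between genes; symbols mark the replicate number and bars the group mean (n = 3). A-DON replicates 1 and 3 lie below all DON rats in every panel, while A-DON replicate 2 lies at 3954 normalized counts of Mmp2 and 204 of Mmp9, inside the DON range.

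Mmp14, the membrane-bound activator of Mmp2, had 8298, 4268 and 5019 normalized counts in DON replicates 1, 2 and 3. In A-DON replicates 1, 2 and 3 it had 1507, 4210 and 1939. The groups did not overlap, as was the case for 27.9% of tested genes in this direction, but A-DON replicate 2 was nearly level with the lowest DON rat. As a share of all reads of the library the groups did overlap, with 0.0156% in A-DON replicate 2 and 0.0147% in DON replicate 2. The mean was 5862 ± 2143 in DON against 2552 ± 1452 in A-DON (SD, n = 3 rats each). The fitted log2 fold change, -1.28 ± 0.44 (standard error; 95% interval -2.36 to -0.21), missed the threshold (limma adjusted p = 0.065).

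Mmp2 had 9569, 3876 and 5201 normalized counts in DON replicates 1 to 3. In A-DON replicates 1 to 3 it had 621, 3954 and 1071. A-DON replicate 2 lay above DON replicate 2, so the groups overlapped, while the lowest DON value was 6.24 times that of A-DON replicate 1 and 3.62 times that of A-DON replicate 3. The mean was 6215 ± 2979 in DON against 1882 ± 1809 in A-DON (SD, n = 3 rats each), and the log2 fold change of -2.06 ± 0.72 (standard error; 95% interval -3.82 to -0.30) missed the threshold (limma adjusted p = 0.068). In both Mmp2 and its activator Mmp14, DON replicate 1 was the highest of the 6 libraries and A-DON replicate 1 the lowest.

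Mmp9 showed the widest range between rats within A-DON. It had 198, 1021 and 366 normalized counts in DON replicates 1 to 3 and 7.70, 204 and 17.8 in A-DON replicates 1 to 3. A-DON replicate 2 thus had 26.5 times the level of A-DON replicate 1 and slightly more than DON replicate 1. The low values rest on few reads: A-DON replicate 1 had 8 reads, with an exact 95% Poisson interval of 3.45 to 15.8, and A-DON replicate 3 had 18, with an interval of 10.7 to 28.4. The lowest DON library had 208 reads (181 to 238), far outside both intervals, which cover counting error only.

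Mean levels of Mmp9 were 528 ± 435 in DON against 76.5 ± 110 in A-DON (SD, n = 3 rats each). Its log2 fold change of -3.71 ± 1.26 (standard error; 95% interval -6.78 to -0.63) was the most negative of the 5. Of all tested genes 0.651% had a lower one, a share that was 2.30% with a pseudocount of 0.1, 2.25% without DON replicate 2, 1.36% without A-DON replicate 1, 1.00% with voom and 0.354% without DON replicate 1. It missed the threshold (limma adjusted p = 0.063) and passed it with quantile normalization (limma adjusted p = 0.048). Among DON rats Mmp9 was highest in replicate 2, the rat with the lowest Mmp2 and Mmp14 of that group. The gelatinases Mmp9 and Mmp2 therefore ranked the DON rats in opposite order.

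Mmp3, the stromelysin that can activate the Mmp9 proenzyme, was read least. It had 13.3, 43.9 and 213 normalized counts in DON replicates 1 to 3, from 14, 46 and 211 reads. In A-DON replicates 1 to 3 it had 9.63, 39.9 and 3.95, from 10, 37 and 4 reads. DON replicate 1 and A-DON replicate 1 could not be told apart at this depth, since the exact 95% Poisson intervals of their reads were 7.65 to 23.5 and 4.80 to 18.4. Values spanned 16.0-fold from lowest to highest within DON and 10.1-fold within A-DON, and the groups overlapped.

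Mmp3 averaged 90.1 ± 108 in DON against 17.8 ± 19.3 in A-DON (SD, n = 3 rats each). Its log2 fold change was -2.0 ± 1.2 (standard error; 95% interval -4.93 to 0.93; limma adjusted p = 0.23). Without DON replicate 3, which held most of the Mmp3 reads of that group, it was -0.97 (limma adjusted p = 0.52). In RefSeq the neighbours of Mmp3 are other family members, among them Mmp1, Mmp1b, Mmp10, Mmp12, Mmp13 and Mmp8. How the authors' counting treated reads that match several of these related genes is not given in the sources used here.

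Timp1, the inhibitor, had 4165, 3078 and 4516 normalized counts in DON replicates 1 to 3. In A-DON replicates 1 to 3 it had 430, 2499 and 423. The DON rats were close to each other, with the highest 1.47 times the lowest, and A-DON replicates 1 and 3 were almost equal. A-DON replicate 2 lay just below the DON range, so that the groups did not overlap, as for 27.9% of tested genes in this direction. The mean was 3920 ± 750 in DON against 1117 ± 1196 in A-DON (SD, n = 3 rats each).

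Timp1 fell in A-DON with a log2 fold change of -2.33 ± 0.71 (standard error; 95% interval -4.06 to -0.60; limma adjusted p = 0.048). The call was lost under several settings, among them no filter on low values (limma adjusted p = 0.053). It was also lost on leaving out any library other than A-DON replicate 2 (limma adjusted p from 0.084 to 0.15). In those fits with a library left out, the calls over all genes also fell, from 6930 to between 12 and 3930, so the loss is not particular to Timp1. In RefSeq, Timp1 lies within the span of Syn1, the gene of the neuronal vesicle protein synapsin. The libraries were made with a stranded kit, but the strand setting of the counting is not given, so reads of the overlapping genes may have been shared.

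**Figure D2:**
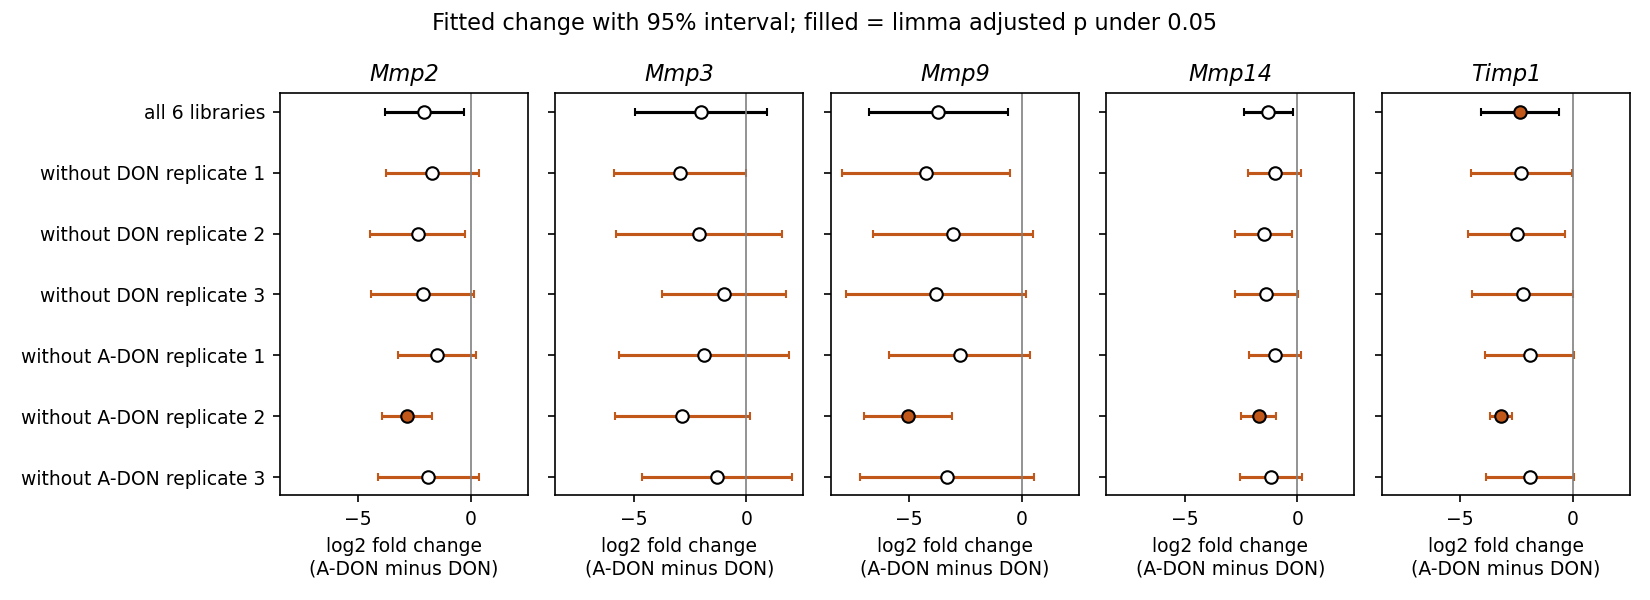
Fitted log2 fold change (A-DON minus DON) of each gene with its 95% interval, for all 6 libraries and with each library left out; filled points have a limma adjusted p under 0.05. Every point lies below 0, and with A-DON replicate 2 left out the points of Mmp2, Mmp9, Mmp14 and Timp1 are filled.

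Which rats entered the fit decided how many of the genes passed. Without A-DON replicate 2, 4 of the 5 passed as lower in A-DON, against 24.9% of all tested genes in that fit. The log2 fold changes were then -2.82 for Mmp2 (limma adjusted p = 0.0060), -5.04 for Mmp9 (0.0055), -1.72 for Mmp14 (0.0093) and -3.18 for Timp1 (0.00071). Mmp3 did not pass at -2.83 (limma adjusted p = 0.10). The standard error of Timp1 went from 0.71 to 0.19 when this rat was left out. With any other library left out, none of the 5 passed, and each log2 fold change stayed negative. Of all 19515 tested genes, 1297, 1105 and 220 passed as lower without DON replicates 1, 2 and 3. Without A-DON replicates 1 and 3 it was 3 and 1. A count of none in 5 is thus near the background of those fits. That fit without A-DON replicate 2 rests on 2 A-DON rats, and nothing in the labels marks this rat as different.

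A-DON replicate 2 was placed between the DON mean (0) and the mean of A-DON replicates 1 and 3 (1) for each gene. With linear normalized counts the position was 0.42 for Mmp2, 0.60 for Mmp3, 0.63 for Mmp9, 0.40 for Mmp14 and 0.41 for Timp1. On the log2 scale it lay between 0.12 (Mmp3) and 0.24 (Mmp14). The library thus lay between these means for all 5 genes, nearer to the DON mean on the log2 scale. Only for Mmp14 and Timp1 did it lie below every DON rat. In these 2 genes every A-DON value was below every DON value, as in 27.9% of tested genes. Within A-DON the log2 SD was 0.77 for Mmp14, 1.37 for Mmp2, 1.47 for Timp1, 1.54 for Mmp3 and 2.38 for Mmp9, against a median of 0.29 over all tested genes. Within DON it was 0.29 for Timp1, close to the median of 0.28 over all tested genes. It was 0.50 for Mmp14, 0.66 for Mmp2, 1.19 for Mmp9 and 1.96 for Mmp3, so that wide spread was not confined to A-DON.

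Ratios between genes within a library asked whether proteinases and inhibitor changed by different amounts. They do not depend on the scaling of the library beyond the 1 added to each count, and since gene lengths were not used, only the change of a ratio between rats can be read. For 6 ratios the groups were compared by exact two-sided permutation tests, which with 3 rats against 3 cannot give a p below 0.1. No ratio reached even that value, and the adjusted p over the 6 ratios lay between 0.40 and 0.80.

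The log2 ratio of Mmp14 to Timp1 was 0.99, 0.47 and 0.15 in DON replicates 1 to 3 and 1.81, 0.75 and 2.19 in A-DON replicates 1 to 3. The A-DON mean was higher by 1.04 (exact permutation p = 0.2), and A-DON replicate 2 lay inside the DON range. The log2 ratio of Mmp14 to Mmp2 was steady among DON rats, at -0.21, 0.14 and -0.05, and was 1.28, 0.09 and 0.86 in A-DON replicates 1 to 3. The A-DON mean was higher by 0.78 (exact permutation p = 0.2). The 2 A-DON rats with low Mmp2 thus had a smaller deficit of Mmp14 than of Mmp2.

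The ratio of Mmp2 to Timp1 hardly separated the groups, with log2 values of 1.20, 0.33 and 0.20 in DON and 0.53, 0.66 and 1.34 in A-DON, a difference of 0.26 (exact permutation p = 0.5). The log2 ratio of Mmp9 to Timp1 was -4.39, -1.59 and -3.62 in DON and -5.63, -3.61 and -4.50 in A-DON, a difference of -1.38 at a spread of 1.45 (SD) among the DON rats alone ( exact permutation p = 0.3). The ratio of Mmp9 to Mmp2 differed by -1.64 (exact permutation p = 0.2). The ratio of Mmp3 to Timp1 differed by 0.33 (exact permutation p = 0.8), and by -0.65 without DON replicate 1. In all 6 ratios the values of the groups overlapped.

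**Figure D3:**
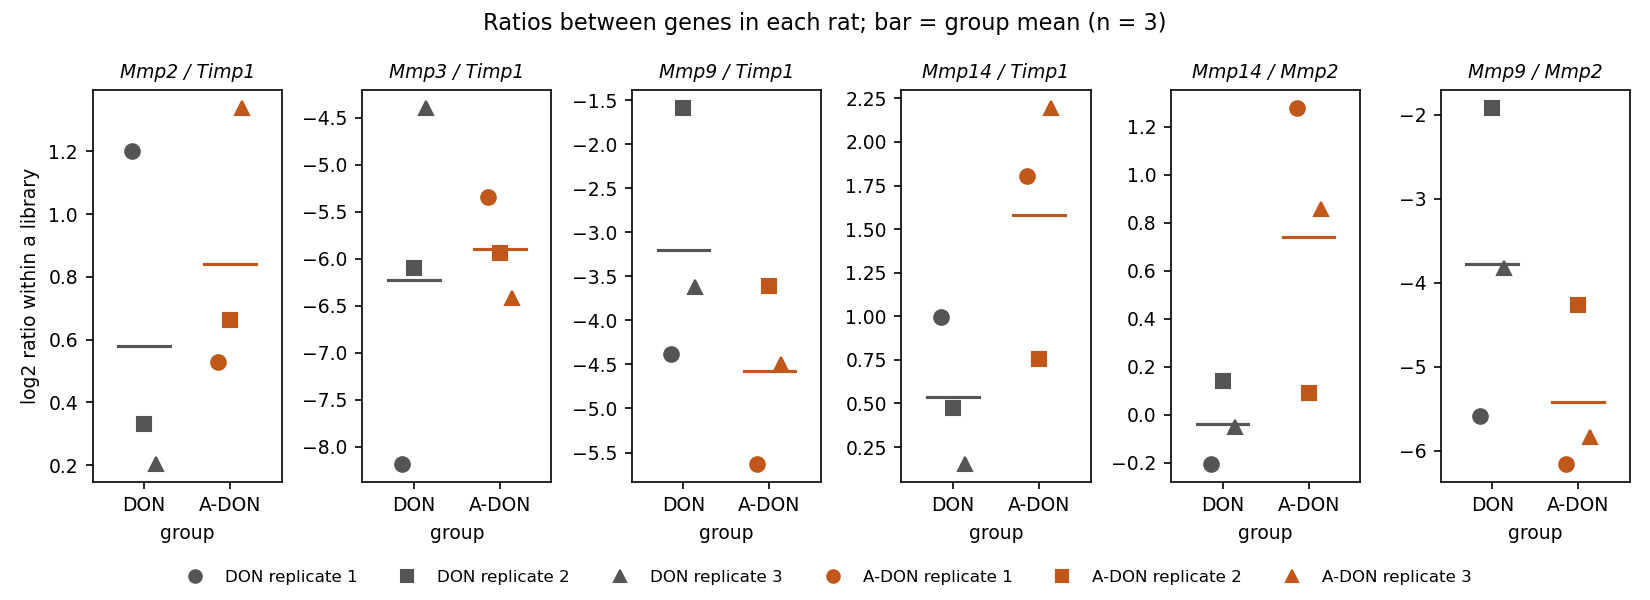
Log2 ratios between pairs of the genes within each library, with an axis that differs between pairs; symbols mark the replicate number and bars the group mean (n = 3). The groups overlap in all 6 panels, and for Mmp14 to Mmp2 the DON rats lie between -0.21 and 0.14 while A-DON replicates 1 and 3 lie at 1.28 and 0.86.

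The likeness of profiles was measured as the root mean square difference of log2 values over the 6 libraries, after each gene was centred on its own mean, and is a description. Among the 5 genes Mmp2 and Timp1 were nearest to each other, at 0.42, followed by Mmp2 and Mmp14 at 0.53. Mmp9 and Mmp14 were farthest apart, at 1.80. Of 14702 other genes that averaged 50 or more normalized counts, 760 lay within 0.5 of Timp1, 649 of Mmp2 and 1771 of Mmp14, but only 1 each of Mmp3 and Mmp9. The profiles of Timp1, Mmp2 and Mmp14 thus lay near those of many genes of the table. Profiles were centred but not scaled, so the distance counts the size of differences as well as their pattern. Mmp3 and Mmp9 had the widest spread of the 5, and their low numbers do not show that their pattern is rare. The gene nearest to Timp1 was ENSRNOG00000037853, at 0.029, with 3502, 2491 and 3571 normalized counts in DON replicates 1 to 3 and 356, 2074 and 343 in A-DON replicates 1 to 3. The gene nearest to Mmp14 was ENSRNOG00000006019, at 0.072, with 248, 122 and 153 in DON and 44.3, 127 and 50.4 in A-DON. No name is given for these 2 IDs in the files used here.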

How the data were processed

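Spinal cord of 6 rats (3 DON, 3 A-DON) gave stranded mRNA libraries, per the labels' protocols. Build rn6 and the tools STAR 2.5.3a, FastQC 0.11.2 and StringTie 1.3.1c are listed in the submitters' processing notes without their roles; how reads were counted, with which strand setting and on which annotation, is not given in the sources used here. What the authors deposited are log2 values for 22526 Ensembl IDs. After the log2 was undone, 100% of values were whole multiples of a step that is constant within a library (tolerance 0.05 reads). The values thus have the form log2(reads / size factor + 1), where the whole multiples are called reads.

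The groups were compared on the deposited log2 values with limma 3.58.1 (statmod 1.5.0, R 4.3.3), with an intensity trend and robust moderation, over the 19515 genes that reached 1 normalized count in 3 or more libraries, adjusted by Benjamini-Hochberg at 0.05. Since 1 is added before the log2, fold changes of genes with low counts are understated. The test was checked on simulated counts. These were drawn with the same spread setting for every gene and without a deviating library. They do not show how the test behaves at the spread between rats seen here. Ratios were tested by exact permutation (Python 3.11.15). Alternatives were other scalings, filters, a pseudocount of 0.1, limma without trend and robust moderation, voom on the recovered reads, a block for the replicate number, and each library left out in turn.

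The gene names of the 5 IDs came with the list of members. None of the table's IDs was found among the 47357 genes of the RefSeq table (GRCr8), so that the 15 pathway and marker lists gave no values. All 5 members were named, and for each the gene with the nearest profile was sought, of which at most 2 IDs per direction are printed. Members and lists were chosen with earlier results of these data known. The labels give each sample its own rat number within a group, so the samples were taken as separate rats. The limma p-values set the group difference against the spread between rats, which is estimated in part across genes. Rats with the same number in both groups carried different implants, so they were taken as different rats and were not paired.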

Additional observations from a re-analysis of the deposited data

How the results depend on the processing

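The direction of the change was the same for all 5 genes under the 14 alternatives run, while the calls depended on them. Timp1 lost its call with total-count scaling (log2 fold change -2.24, limma adjusted p = 0.057), no filter (-2.33, 0.053), a pseudocount of 0.1 (-2.33, 0.051), limma without trend and robust moderation (-2.33, 0.063) and the replicate number as a block (-2.33, 0.10). Mmp9 gained one with quantile normalization (-3.65, 0.048). Leaving out 1 library gave log2 fold changes from -2.82 to -1.49 for Mmp2, -2.92 to -0.97 for Mmp3, -5.04 to -2.76 for Mmp9, -1.72 to -0.98 for Mmp14 and -3.18 to -1.90 for Timp1, each of these fits having fewer rats. Over all genes the count of 6930 became 12 to 9286 on leaving out 1 library, and 0 with the replicate block (limma; 7601 at an unadjusted p under 0.05), which leaves fewer residual degrees of freedom; the other 7 settings gave 5879 to 7457. Total-count scaling moved the split from 3698 higher and 3232 lower genes to 4372 and 2418. Deviations of same-numbered rats from their group means did not go together (Pearson r = -0.27, -0.32 and -0.16 over 14707 genes). The differences of the log2 ratios ranged, on leaving out 1 library, from 0.51 to 1.11 (Mmp14 to Mmp2), 0.74 to 1.46 (Mmp14 to Timp1), 0.016 to 0.57 (Mmp2 to Timp1), -0.65 to 1.24 (Mmp3 to Timp1), -2.55 to -0.72 (Mmp9 to Mmp2) and -1.97 to -0.57 (Mmp9 to Timp1). Read depth limits Mmp3 in most libraries and Mmp9 in A-DON replicates 1 and 3.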
